A study of Homo sapiens with 2 samples.

Results

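The TCF4 binding sites of chromosomes 3 and 18 comprised 231 of the 662 peaks in a deposited table, assigned to 97 of its 275 genes. They were taken by chromosome alone: 128 peaks of 60 genes on chromosome 3 and 103 peaks of 37 genes on chromosome 18. The table came from SU-DHL-2, an established line of the activated B-cell-like (ABC) type of diffuse large B-cell lymphoma (DLBCL) that the series' design text describes as lacking a copy number gain of TCF4. The cells carried a tetracycline-inducible TCF4 and had 60 ng/ml doxycycline for 24 hours. Formaldehyde-fixed chromatin was precipitated with a TCF4 antibody for 1 ChIP library, and 1 library of whole-cell extract served as input. Cells without induced TCF4 were not analysed here, so binding of the endogenous and of the induced protein cannot be told apart. There were no replicates, and no test between conditions was possible.

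TCF4, also called E2-2, is an E protein, a class of basic helix-loop-helix transcription factors that bind as dimers to the E-box, CANNTG. E proteins drive B-cell and plasmacytoid dendritic cell programmes. Gains of chromosome 3 and of the long arm of chromosome 18 recur in ABC-type DLBCL, and TCF4 and BCL2 lie on that arm. ChIP-seq counts reads at each site in the precipitate, and the input library shows how many reads the same site gives without the antibody. Input reads at a site depend, among other things, on how many copies of it the cells carry and on how well it can be sheared and mapped.

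Promoter windows of 4 genes are shown because their genes had a peak marked as promoter. NARS and ZMAT3 had the peaks that covered the most of such a window, by the authors' distance to the start. BCL2 is the lymphoma gene among those with a promoter peak. ALCAM has a match to the E-box letters CACCTG, which TCF4 dimers are known to favour. Each runs from 250 bases before to 50 bases after the start of the gene in RefSeq (GRCh38.p14), 5′ to 3′ on the gene's strand, with matches to CANNTG in capitals. The start of the transcript to which a peak was assigned may differ from the RefSeq start.
NARS1 (NARS in the table): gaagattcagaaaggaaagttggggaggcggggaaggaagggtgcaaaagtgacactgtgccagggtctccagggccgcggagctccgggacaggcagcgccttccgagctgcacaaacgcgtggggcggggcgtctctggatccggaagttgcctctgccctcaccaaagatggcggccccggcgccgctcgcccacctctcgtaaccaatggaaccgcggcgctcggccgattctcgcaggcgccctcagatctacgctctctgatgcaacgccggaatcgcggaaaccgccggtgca
ZMAT3: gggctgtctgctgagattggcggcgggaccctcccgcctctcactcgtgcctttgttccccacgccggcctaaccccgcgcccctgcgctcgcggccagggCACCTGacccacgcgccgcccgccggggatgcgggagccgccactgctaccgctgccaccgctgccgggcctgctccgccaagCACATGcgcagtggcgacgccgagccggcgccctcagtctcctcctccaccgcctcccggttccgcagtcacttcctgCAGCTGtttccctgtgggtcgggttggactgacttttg
BCL2: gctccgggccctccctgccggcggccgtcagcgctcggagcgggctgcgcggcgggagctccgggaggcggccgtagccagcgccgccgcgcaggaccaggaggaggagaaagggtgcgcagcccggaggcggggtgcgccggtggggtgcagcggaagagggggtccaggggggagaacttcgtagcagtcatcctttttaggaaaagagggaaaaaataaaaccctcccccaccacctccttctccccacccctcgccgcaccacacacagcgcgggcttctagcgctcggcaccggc
ALCAM: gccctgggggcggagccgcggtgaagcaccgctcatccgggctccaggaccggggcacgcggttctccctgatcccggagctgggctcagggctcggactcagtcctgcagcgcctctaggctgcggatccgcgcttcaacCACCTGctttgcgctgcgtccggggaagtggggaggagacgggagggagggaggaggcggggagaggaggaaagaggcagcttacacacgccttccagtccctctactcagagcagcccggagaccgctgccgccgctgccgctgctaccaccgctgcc

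In GRCh38.p14 these windows lie on chromosome 18 at 57621787 to 57622086 (NARS1) and 63319720 to 63320019 (BCL2), and on chromosome 3 at 179071760 to 179072059 (ZMAT3) and 105366659 to 105366958 (ALCAM). BCL2, NARS1 and ZMAT3 are on the minus strand and ALCAM is on the plus strand. With the authors' start taken as the RefSeq start, the NARS peak overlapped its window by 228 bases and the ZMAT3 peak by 95. By the same reckoning the BCL2 and ALCAM peaks lay beyond the windows, in the transcript. Where the starts differ these overlaps change, so whether the BCL2 and ALCAM peaks reach their windows is not settled. ZMAT3 held 3 matches, CACCTG at -149, CACATG at -66 and CAGCTG at 13, counted from the start. ALCAM held CACCTG at -109, and the NARS1 and BCL2 windows held no CANNTG. The E-box reads the same on both strands, and it occurred in 52 of the 90 windows found for genes of these chromosomes, 57.8%, against 68.7% of all 35116 RefSeq windows. CAGGTG or its reverse complement CACCTG, a subset of CANNTG, occurred in 13 of the 90, 14.4%, against 20.6% of all windows. The full set of windows was not matched to these genes by gene type or base composition. The lower shares are therefore not read as a trait of these genes. Most peaks lay far from these windows, so the letters describe the windows and not the sites bound.

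Of the 231 peaks, 11 were marked as promoter, 8 on chromosome 3 and 3 on chromosome 18. Fold enrichment is ChIP over input reads, scaled by the constants of the 2 libraries, and brackets hold 95% exact binomial intervals that cover counting error only. The strongest was NARS (asparaginyl-tRNA synthetase), where a peak centred 0.208 kb upstream of the start had 59 ChIP and 6 input reads, 8.88-fold (3.84 to 25.2). BCL2, the anti-apoptotic gene, had 162 ChIP and 17 input reads at 1.08 kb inside the transcript, 8.6-fold (5.21 to 15.1). CCNL1 (cyclin L1, linked to splicing) had 109 ChIP and 13 input reads, 7.57-fold (4.25 to 14.7). ANAPC13, a subunit of the anaphase-promoting complex, had 140 ChIP and 20 input reads, 6.32-fold (3.94 to 10.7). IQSEC1, an exchange factor for ARF GTPases, had 188 ChIP and 27 input reads, 6.28-fold (4.18 to 9.79). These 5 of 11 lay above 6-fold, beside 30.4% of all listed peaks, and so small a number does not set promoter peaks apart. The other 6, at ALCAM (4.51-fold), PCNP (4.24-fold), DHX36 (4.23-fold), THOC1 (4.15-fold), ZMAT3 (4.01-fold) and ABHD10 (3.89-fold), had intervals that overlapped those of all 5.

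The table limits every value. By its headers it was restricted to genes belonging to a TCF4 signature, so the number of peaks on a chromosome follows the choice of genes as well as binding. No peak of these chromosomes was under 3.75-fold, so weaker sites are missing from all medians. ChIP reads per peak ran from 28 to 369 on these chromosomes, and input reads from 0 to 53. The total depth of the 2 libraries is unknown here, so precision is set by the reads in each peak. HEG1 was marked Down and the other 96 of the 97 genes were marked Up, against 133 of 178 genes marked Up on the other chromosomes. The headers do not say against what.

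On chromosome 3 the input signal changed along the chromosome, and the peaks fell into 3 stretches. From CRBN to CGGBP1 (3.35 to 88.1 Mb, hg19), 43 peaks of 13 genes had 33.7 input reads per kb of peak (95% Poisson interval 31.3 to 36.3). From TFG to SLC35A5 (100.4 to 112.3 Mb), 16 peaks of 7 genes had 31.1 (26.8 to 35.9). From COX17 to IQCG (119.4 to 197.7 Mb), 69 peaks of 40 genes had 46.1 (43.7 to 48.5). The last stretch thus exceeded the first by a ratio of 1.37 (1.25 to 1.5) and the middle one by 1.48 (1.27 to 1.73). The positions that separate the stretches were chosen after the values were seen. These intervals cover counting error only and are no test of the difference.

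Bins of 20 Mb showed the same order without that choice. The 6 bins below 120 Mb had 29.2 to 37.1 input reads per kb, and the 4 bins above it had 44.3 (41 to 47.8), 44.5 (39.1 to 50.4), 47.9 (41.02 to 55.7) and 48.8 (44 to 54). Of these 10 bins only that from 120 to 140 Mb held over 20 peaks, and the one from 80 to 100 Mb held 1, that of CGGBP1. Leaving out any single gene kept the last stretch between 45.5 (without MCCC1) and 46.6 (without CCNL1), and the first between 32 (without TRAK1) and 34.3 (without IQSEC1). Across the 128 peaks, which share 1 input library, start position and input density had a Spearman's rho of 0.49. Among the other chromosomes with 10 or more listed peaks it ran from -0.7 on chromosome 2 (33 peaks) to 0.64 on chromosome 11 (12 peaks). A trend along the chromosome was thus not particular to chromosome 3. Base composition and mappability were not used here.

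ChIP density moved with the input along chromosome 3, though by less. It was 201.4 reads per kb (195.2 to 207.6) in the first stretch, 191.2 (180.3 to 202.5) in the middle and 242.9 (237.6 to 248.4) in the last, a ratio of last to first of 1.21 (1.16 to 1.25). Pooled enrichment was therefore 5.39-fold (4.97 to 5.85), 5.55-fold (4.75 to 6.51) and 4.76-fold (4.5 to 5.04) in that order. At or above 6-fold were 11 of 43 peaks in the first stretch, 4 of 16 in the middle and 10 of 69 in the last, and each share lay below the 30.4% of all listed peaks. A peak with more input needs more ChIP reads to reach the table's lowest ratio, so density and fold are linked by the selection as well.

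On chromosome 18 input was lowest at the start and higher further along. From THOC1 to SEH1L (0.267 to 13 Mb), 17 peaks of 6 genes had 23.4 input reads per kb (19.3 to 28.02). From ESCO1 to PIK3C3 (19.1 to 39.6 Mb), 18 peaks of 11 genes had 28.5 (25.1 to 32.3). From SMAD2 to NFATC1 (45.2 to 77.2 Mb), 68 peaks of 20 genes, TCF4 and BCL2 among them, had 36.2 (34.2 to 38.4). The last stretch exceeded the first by a ratio of 1.55 (1.28 to 1.89) and the middle one by 1.27 (1.11 to 1.46). The positions that separate these stretches were also chosen with the values in view. No single gene carried the order: without BCL2 the last stretch had 35.2, and without ANKRD12 the first had 24.8.

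Here ChIP density kept pace with the input. It was 143.9 reads per kb (133.6 to 154.8) in the first stretch, 186.8 (177.8 to 196.1) in the middle and 228.5 (223.4 to 233.7) in the last. The ratio of last to first was 1.59 (1.47 to 1.72), so pooled enrichment was 5.55-fold (4.56 to 6.81), 5.92-fold (5.17 to 6.79) and 5.69-fold (5.35 to 6.05), with overlapping intervals. Peak width moved along as well, with medians of 304, 385.5 and 433 bp. Among peaks of 350 bp or more, input density was still ordered, at 24.9 (4 peaks), 29.2 (13 peaks) and 36.8 (61 peaks) reads per kb. In bins of 10 Mb it ran from 24.7 (20.6 to 29.3) between 10 and 20 Mb to 41.8 (37 to 47.1) between 60 and 70 Mb, where 9 of the 12 peaks were those of BCL2. The last bin, from CNDP2 to NFATC1, had less input (35.1, 31.1 to 39.4) but the most ChIP reads, 295.6 per kb (283.8 to 307.8), and the highest pooled enrichment of the 8 bins, 7.6-fold (6.72 to 8.64).

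**Figure D1:**
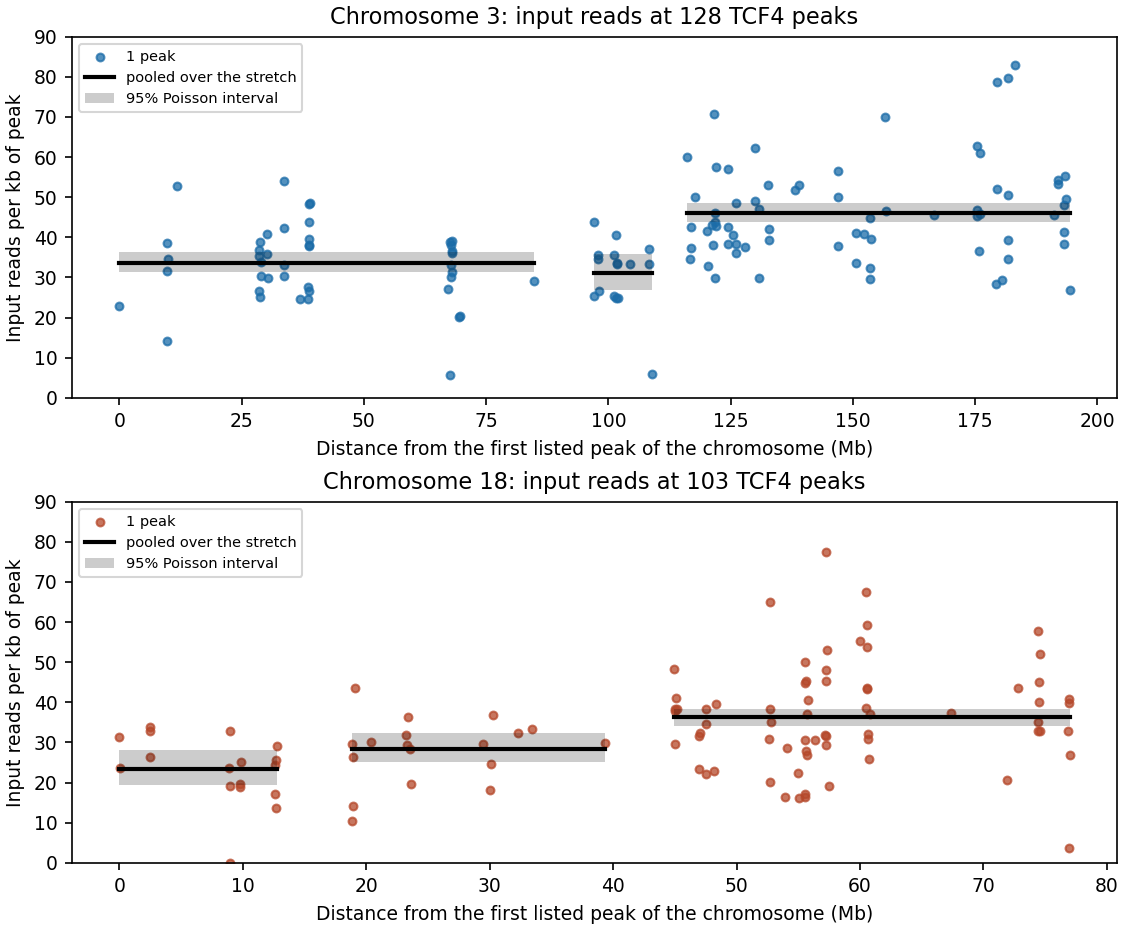
Input reads per kb of peak (vertical axis) against distance from the first listed peak of the chromosome in Mb (horizontal axis), with 1 point per peak. Black lines are the pooled values of the stretches with their 95% Poisson interval in grey, and the last line lies above the earlier ones on chromosome 3 (46.1 against 33.7 and 31.1) and on chromosome 18 (36.2 against 23.4 and 28.5).

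Against the other chromosomes the 2 chromosomes went opposite ways in input. Pooled input density was 40.2 reads per kb (38.6 to 41.9) on chromosome 3 and 33.4 (31.8 to 35.1) on chromosome 18, against 36.9 (36.1 to 37.7) on all other chromosomes together. The ratios to the other chromosomes were 1.09 (1.04 to 1.14) for chromosome 3 and 0.905 (0.857 to 0.956) for chromosome 18. Both lay inside the range of single chromosomes with 10 or more listed peaks, from 32 on chromosome 21 to 54.8 on chromosome 13. At the 5 TCF4 peaks themselves pooled input density was 37.1 reads per kb, from 82 input reads, beside the 36.9 of the other chromosomes. The 5 single peaks varied widely, from 20.2 to 65.1 reads per kb. Copy number was not measured here, and its part in these densities was not tested.

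**Figure D2:**
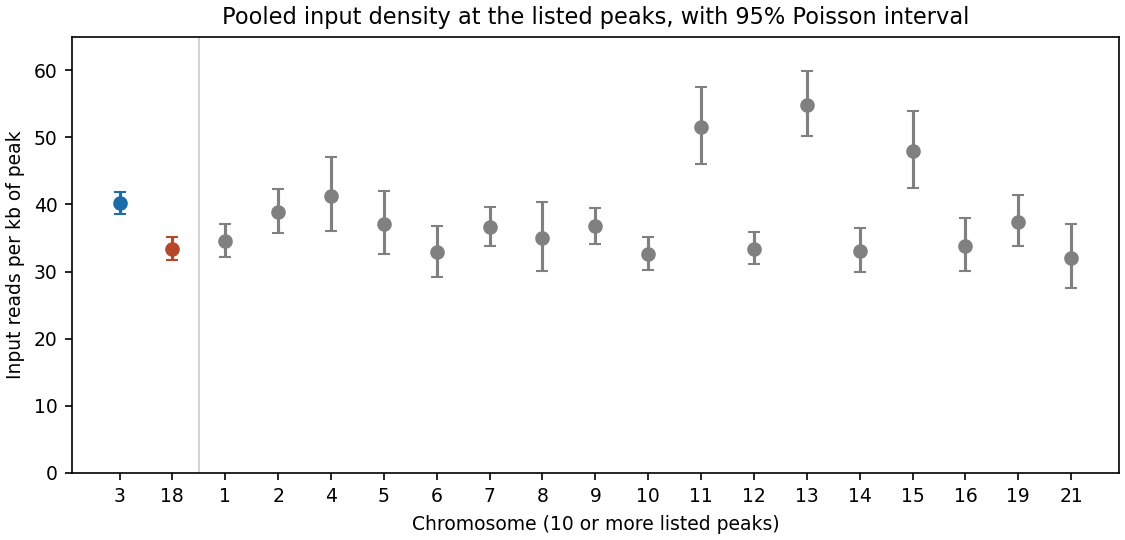
Pooled input reads per kb of listed peak (vertical axis) for each chromosome with 10 or more listed peaks (horizontal axis), with 95% Poisson intervals. Chromosomes 3 (40.2, blue) and 18 (33.4, red) stand left of the line, and the others, in grey, range from 32 to 54.8.

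Enrichment was somewhat lower on chromosome 3. The median peak was 4.74-fold (order-statistic interval 4.47 to 4.91) on chromosome 3 and 4.92-fold (4.6 to 5.55) on chromosome 18, against 5.2-fold (5.01 to 5.42) on the other chromosomes. At or above 6-fold were 25 of 128 peaks of chromosome 3, 19.5% (Wilson interval 13.6 to 27.2), and 35 of 103 of chromosome 18, 34% (25.6 to 43.6), against 141 of 431 on the other chromosomes, 32.7% (28.5 to 37.3). Of all listed peaks, 30.4% were at or above 6-fold. With the reads of each gene pooled, 11 of 60 genes of chromosome 3 and 14 of 37 of chromosome 18 were at or above 6-fold, against 52 of 178 elsewhere and 28% of all genes. The median gene was 4.58-fold (4.4 to 5.13) on chromosome 3 and 5.45-fold (4.54 to 6.08) on chromosome 18, against 5.34-fold (5.21 to 5.55) elsewhere. Chromosome 18 was thus below the other chromosomes by the median peak and above them by the median gene, with overlapping intervals each time. These intervals treat peaks or genes as independent, although peaks share genes.

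The median peak also lay further from the start of its assigned transcript than on the other chromosomes. Peaks of 1 gene could be assigned to different transcripts, so this is not the distance to the nearest start. The median distance was 46.6 kb (37.2 to 54.5) on chromosome 3 and 65.4 kb (51.9 to 87.4) on chromosome 18, against 32.6 kb (28.5 to 37.9) on the others. Over 100 kb away were 31 peaks of chromosome 3, 24.2% (17.6 to 32.3), and 34 of chromosome 18, 33% (24.7 to 42.6), against 70 elsewhere, 16.2% (13.1 to 20.02). With 1 median per gene the distances were 41.2 kb (23.9 to 56.4) and 61 kb (29.8 to 76.9) for chromosomes 3 and 18, against 27.2 kb (22.7 to 33.4), and these intervals overlapped. Within the assigned transcript lay 61 of the 128 peaks of chromosome 3, 47.7% (39.2 to 56.3), and 59 of the 103 of chromosome 18, 57.3% (47.6 to 66.4), against 52% (47.3 to 56.7) elsewhere. Upstream were 35 on chromosome 3 and 15 on chromosome 18, and downstream 32 and 29.

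Peaks came in runs. With gaps of at most 100 kb between neighbours, 95 of the 128 peaks of chromosome 3 formed 31 clusters and 84 of the 103 of chromosome 18 formed 19, shares of 74.2% (66.01 to 81) and 81.6% (73 to 87.9), against 81.7% (77.7 to 85) elsewhere. The median gap was 97.3 kb on chromosome 3 and 46.3 kb on chromosome 18. The widest stretches without a listed peak were 28.3 Mb between TRAK1 and FOXP1 on chromosome 3 and 6.6 Mb between VPS4B and RTTN on chromosome 18. Since only signature genes are listed, gaps and clusters follow where those genes lie as well as binding. A stretch without a listed peak cannot be read as lacking bound sites. Clusters with peaks of 2 or more genes numbered 6 of 31 on chromosome 3 and 4 of 19 on chromosome 18, against 4 of 115 elsewhere, and the remaining clusters stayed within 1 gene. Among the shared ones, MBD1 and CXXC1, whose proteins bind CpG DNA, had 3 peaks within 24.6 kb at 7.34-fold (5.36 to 10.3).

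NEDD4L, a ubiquitin ligase gene, and the pair BCL2 and VPS4B headed the clusters with 10 peaks each. All 10 NEDD4L peaks lay within the gene over 245.4 kb and together reached 6.09-fold (5.17 to 7.21) from 1120 ChIP and 166 input reads. Its 4 peaks above 6-fold, of 7.51-fold to 9.93-fold, were neighbours except for 1 peak of 4.51-fold between them, and the 5 others were at 4-fold to 5.85-fold. BCL2 differed in layout: 1 of its 9 peaks, the one marked as promoter, reached 8.6-fold, while the 8 others ran from 3.85-fold to 5.04-fold. Its pooled value was 4.82-fold (4.17 to 5.58). VPS4B, an ESCRT ATPase gene next to it, had 1 peak of 4.69-fold (2.68 to 8.78).

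TRAK1, which encodes an adaptor between mitochondria and motor proteins, had 9 peaks over 253 kb at 5.51-fold (4.73 to 6.43). Upstream of its start lay 6 of them, including the 3 strongest at 7.97-fold (4.38 to 15.9), 7.82-fold (4.29 to 15.6) and 6.73-fold (3.57 to 14). The 2 peaks closest to each other, at 42078196 to 42078826 and 42079735 to 42080187, were 3.87-fold and 7.82-fold with nearly equal ChIP reads (103 and 104) and 24 and 12 input reads. PMAIP1, the gene of the death-promoting BH3-only protein NOXA, had 8 peaks outside the gene, 7 of them in 1 cluster of 148.1 kb at 4.38-fold (3.65 to 5.27). Its most distant peak, 175.9 kb from the start, was the strongest at 7.99-fold (3.66 to 20.7).

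**Figure D3:**
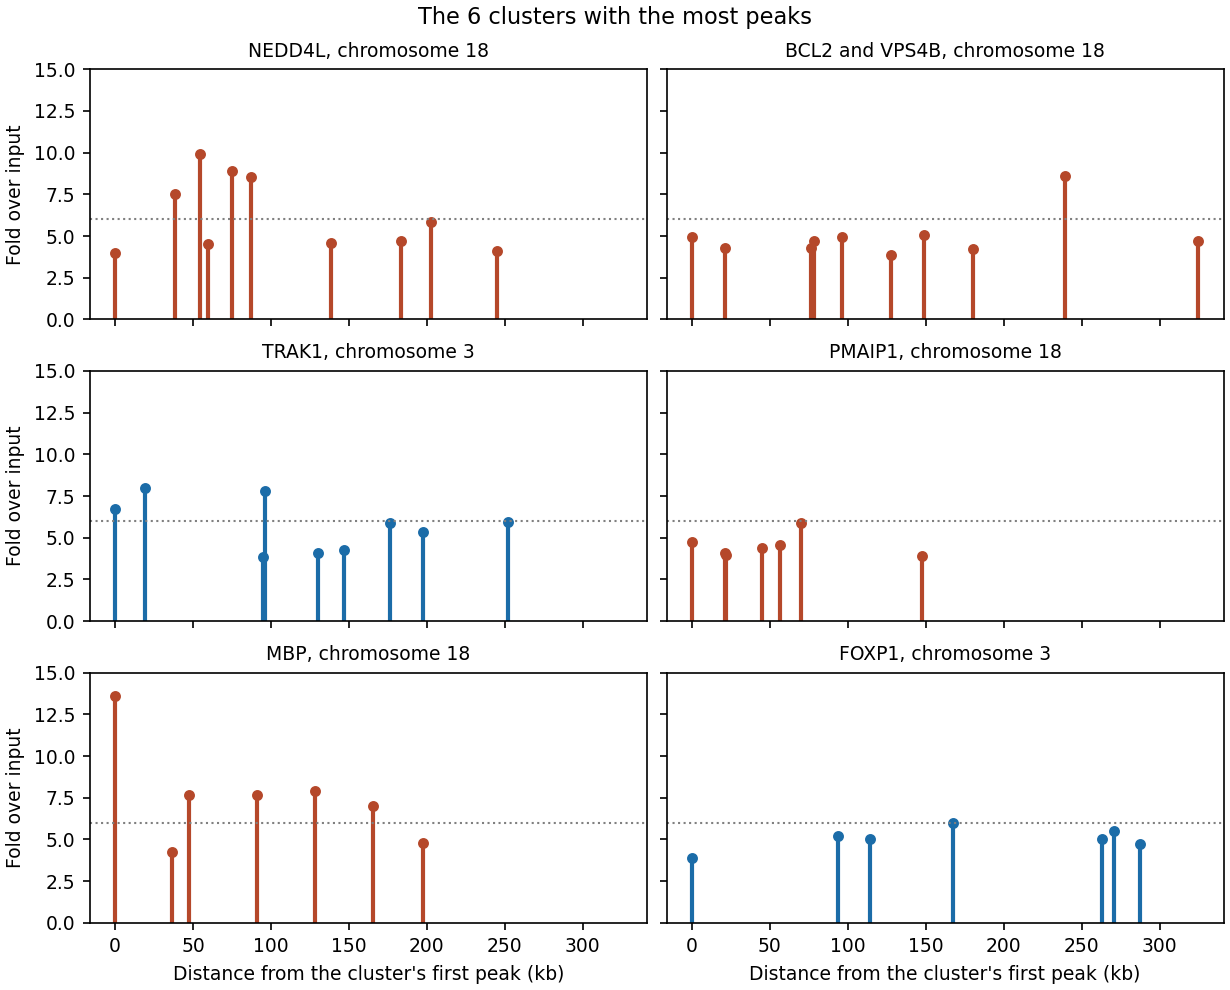
Fold enrichment over input (vertical axis) of each peak against distance from the first peak of its cluster in kb (horizontal axis), for the 6 clusters with the most peaks, with a dotted line at 6-fold. NEDD4L and MBP have several peaks above the line (4 and 5), the BCL2 and VPS4B cluster has 1, and the PMAIP1 and FOXP1 clusters have 0.

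NFATC1 and MBP, near the end of chromosome 18, had the highest pooled enrichment of the 15 genes with 4 or more peaks on these chromosomes. MBP, the myelin basic protein gene, whose longer Golli transcripts are made in lymphoid cells, had 7 peaks at 7.34-fold (6.24 to 8.68). The one downstream of the gene (74666326 to 74666903) had 286 ChIP and 19 input reads, 13.6-fold (8.54 to 22.9), and 4 more were between 7-fold and 7.93-fold. NFATC1, a calcineurin-regulated transcription factor gene downstream of the B-cell receptor, had 5 peaks at 8.49-fold (6.83 to 10.7). Its upstream peak (77123204 to 77123996) held 369 ChIP reads, the most of any peak on the 2 chromosomes, and 26 input reads, 12.8-fold (8.6 to 19.9). A site inside NFATC1 with 88 ChIP and 2 input reads gave 39.7-fold (10.7 to 333), an imprecise value, whereas another inside the gene was at 3.78-fold (2.45 to 6.05).

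Other highly enriched genes of chromosome 18 had 4 peaks or fewer, and they are ranked here among genes with 10 or more input reads. CXXC1, a subunit of histone H3 lysine methyltransferase complexes, had 177 ChIP and 14 input reads at its single peak, 11.4-fold (6.62 to 21.3). ESCO1, a cohesin acetyltransferase gene, had 3 peaks at 7.7-fold pooled (5.75 to 10.5). NARS reached 7.84-fold (4.66 to 14.1) over 2 peaks. The next genes by the same order were ANKRD12, TAF4B (a TFIID subunit) and SEH1L (a nuclear pore component), at 6.62-fold (4.03 to 11.5), 6.62-fold (4.31 to 10.6) and 6.15-fold (3.87 to 10.2). A single ANKRD12 peak had 33 ChIP reads and no input read, 9.93-fold if the floor of 3 reads is set for that peak. The exact interval of that peak had a lower bound of 7.63-fold and no upper bound. The lowest were TSHZ1 at 3.84-fold (2.2 to 7.09), SMAD4 at 3.91-fold (2.32 to 6.94) and ZCCHC2 at 4.04-fold (2.55 to 6.66), each with 1 peak. CNDP2 (10.3-fold, 5.23 to 23.2) and ABHD3 (10.1-fold, 4.66 to 25.8) had fewer than 10 input reads and were not ranked.

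On chromosome 3 the highest values came from single or paired peaks. HEG1, which encodes a mucin-like surface receptor and was the 1 gene marked Down, had 321 ChIP and 33 input reads, 8.78-fold (6.13 to 13). ZBTB11, a zinc-finger factor gene, was at 8.72-fold (4.81 to 17.4), and TFG, which acts in transport from the endoplasmic reticulum, at 8.21-fold (5.62 to 12.4), mainly from a downstream peak of 9.22-fold. IQSEC1 had 4 peaks of 5.08-fold to 8.62-fold and a pooled 6.83-fold (5.44 to 8.67). SHQ1, OSBPL11, IQCG and DCUN1D1 followed at 6.8-fold (3.95 to 12.5), 6.76-fold (4.91 to 9.52), 6.65-fold (3.52 to 13.8) and 6.54-fold (3.56 to 13.2). SLC35A5, a sugar-nucleotide transporter family gene, had 47 ChIP and 2 input reads, 21.2-fold with an interval of 5.55 to 180.3. At the other end stood SNX4, ATR and RFC4, at 3.76-fold (2.61 to 5.53), 3.78-fold (2.33 to 6.41) and 3.81-fold (2.56 to 5.84), all in the last stretch.

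FOXP1, a forkhead factor gene, had the most peaks of chromosome 3, 10 over 857 kb. The single site with 2 input reads and 52 ChIP reads was at 23.5-fold (6.18 to 198.9), and the 9 others lay between 3.91-fold and 5.97-fold. Of these, 7 formed 1 cluster within the gene at 5.15-fold (4.16 to 6.42). ALCAM, the adhesion molecule CD166, had 7 peaks spread over 768.6 kb at 4.7-fold (3.75 to 5.95), 4 of them upstream and as far as 526.5 kb from the start. GPD1L and CCNL1 had 4 peaks each, at 4.96-fold (3.69 to 6.77) and 5.18-fold (3.95 to 6.9). The 4 peaks of MAP3K13, a stress kinase gene, ran from 3.75-fold to 4.26-fold, with a pooled value of 3.95-fold (3.13 to 5.04). The highest input densities of single peaks on chromosome 3 were those of RFC4 (82.9 reads per kb), MAP3K13 (79.8) and MCCC1 (78.6).

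**Figure D4:**
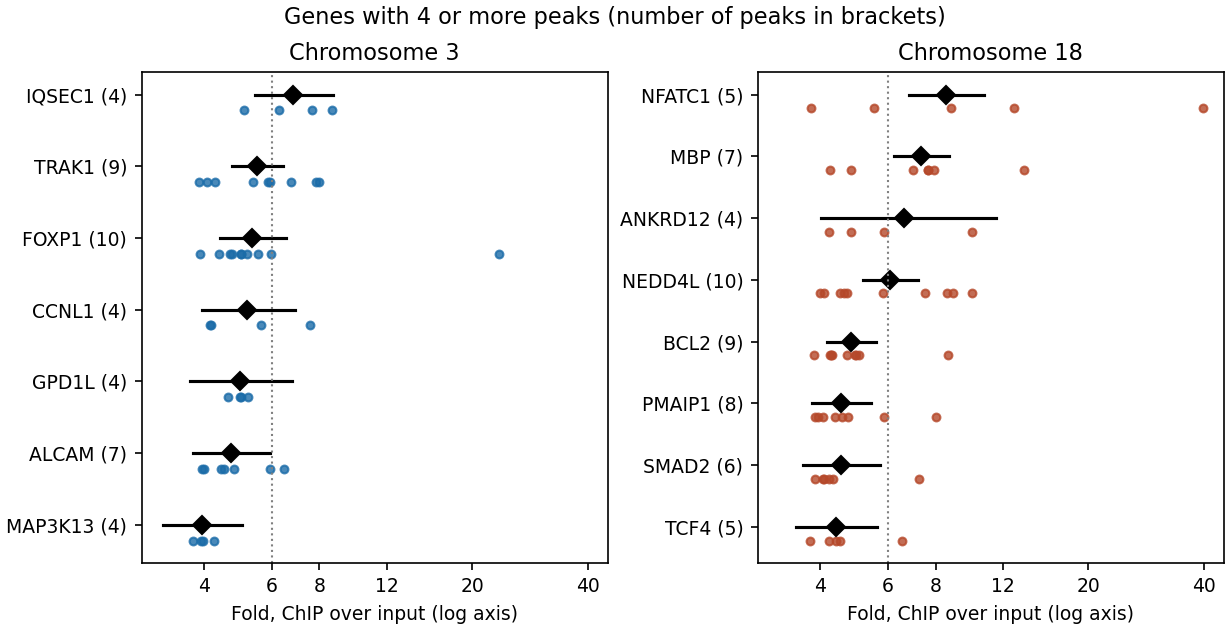
Fold enrichment of ChIP over input on a log axis for the 15 genes with 4 or more peaks, 7 on chromosome 3 and 8 on chromosome 18. Black diamonds and bars are the pooled value of the gene with its 95% exact interval, coloured points are its single peaks, and the dotted line marks 6-fold; NFATC1 (8.49-fold) is highest and MAP3K13 (3.95-fold) lowest.

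Of a list of 27 lymphoma-linked genes of the 2 chromosomes, 10 had a listed peak, 2 of 15 on chromosome 3 and 8 of 12 on chromosome 18. The list was drawn with earlier results of these data known. These counts therefore cannot show whether lymphoma genes had peaks more often than other genes. Their 52 peaks had a median of 4.68-fold, and 12 of them were at or above 6-fold, beside 30.4% of all listed peaks. OSBPL10, a lipid-binding protein gene mutated in DLBCL, had 3 peaks within the gene at 5.01-fold (3.64 to 7.05). KLHL14, a kelch-family gene also mutated in DLBCL, had 3 at 5.69-fold (4.1 to 8.09), and PTPN2, a phosphatase gene of JAK-STAT signalling, 2 at 6.04-fold (3.35 to 11.8). SMAD2, a mediator of TGF-beta signalling, had 6 peaks at 4.53-fold (3.62 to 5.73), 5 of them downstream of the gene. TCF4 itself had 5 peaks at 4.39-fold (3.46 to 5.64), with the strongest at 6.54-fold (3.11 to 15.9). The peaks were assigned to different TCF4 transcripts, and none lay closer than 32.7 kb to the start of its own. Starts of other TCF4 transcripts can lie nearer, and distances to them were not computed. The other 17 listed genes, among them MYD88, BCL6 and MALT1, had no listed peak. Their absence cannot be read as lack of binding, since the table is limited to signature genes.

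The 97 genes were also grouped by role, after their names were seen. The 20 genes of transcription and chromatin had 57 peaks and a median gene value of 4.54-fold (range 3.84 to 11.4). The 8 genes of DNA repair, replication and chromosome structure, such as ATR, TOPBP1 and POLQ, had 12 peaks and a median of 4.54-fold, and 0 of the 6 on chromosome 3 were at or above 6-fold, beside 11 of all 60 genes of that chromosome and 28% of all genes, a share too close to 0 of 6 to set them apart. Membrane traffic and cytoskeleton genes, 13 with 34 peaks, had a median of 4.69-fold, with TFG at the top. Metabolism and transporter genes, 14 with 23 peaks, had 4.98-fold, and on chromosome 18 their 5 members were at 5.47-fold (ACAA2) to 10.3-fold (CNDP2). The 12 genes of RNA and protein synthesis had 22 peaks and 4.75-fold, and their peaks lay closest to their assigned starts, with a median of 14.5 kb. The 6 ubiquitin-type ligase genes, which include NEDD4L, CRBN and ANAPC13, had 16 peaks and 5.93-fold. All groups sit beside a median gene of 5.24-fold over the whole table, and no test was made between them.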

How the data were processed

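ChIP and input libraries of doxycycline-induced SU-DHL-2 cells, 1 each, were compared in 1 deposited peak table. BWA, GATK and hg19 are named in the submitters' processing notes (roles and versions not stated), and no source used here names a peak caller. Per the file headers, the table holds read counts per peak and a signal that the authors scaled to peak width and to a constant of each library. It also holds the authors' log2 ratio of ChIP over input and their −log10 p per peak. The lowest log2 ratio was 2.01. Distances run from the peak centre to the start of the assigned transcript, as the authors gave them. Spike-in chromatin was added per the labels' protocols, and whether the constants use it is not stated. The input is the column headed IC.

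Fold enrichment was computed as ChIP over input reads times the ratio of the constants (0.903), with no pseudocount and a floor of 3 reads where input was 0. Intervals are 95%: exact binomial for folds and density ratios, Wilson for shares, exact Poisson for densities and order statistics for medians. Those for folds, densities and density ratios cover counting error only, and those for shares and medians are taken across peaks or genes. None covers variation between libraries, since there was 1 of each kind. Reads lack molecular identifiers, a further limit of the read counts. With 1 library per kind no test was made. Computation used scipy 1.17.1, numpy 2.4.6 and pandas 2.3.3 under Python 3.11.15, and scripts were tested on simulated data. Genes named with values had 4 or more peaks, were among the 8 highest or 3 lowest pooled folds per chromosome with 10 or more input reads, were in the lymphoma list, had a promoter peak, lay in the largest clusters, held the extreme input densities or were marked Down. A few others are named as members of a cluster or role and were chosen after their values were seen. The members and lists were chosen with earlier results of these data known. Alternatives were another fold, cluster gaps of 20, 50 and 200 kb, merging peaks within 1 kb, the stronger 50% of peaks, medians in place of pooled densities and unscaled ratios. Symbols matched RefSeq for 95 genes, and 2 more were matched through their accession. Promoter windows were found for 90. The values of 1 gene are not reported here.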

Additional observations from a re-analysis of the deposited data

How the results depend on the processing

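Of 54 alternative values for 18 results, 41 stayed within the interval of the reported value (counts, within 1.5 times), 12 moved and 1 reversed. A reversal was defined only for the density ratios. With unscaled ratios and 1 read added, the median fold of chromosome 3 was 4.91. The reversed value was the ChIP density ratio of chromosome 3 to the other chromosomes, 1.02 by medians of single peaks against 0.949 (0.931 to 0.967) pooled; the cause was not tested. At 8-fold in place of 6-fold, chromosome 3 had 6 of 128 peaks and 4 of 60 genes. Chromosome 18 had 16 of 103 peaks and 4 of 37 genes. The share of all listed peaks or genes at 8-fold was not computed, so these counts cannot be called high or low. Among the stronger 50% of peaks by ChIP reads (331), 40.4% of those on the other chromosomes were at or above 6-fold. Chromosome 3 there had 18.4% of peaks, 15 peaks at or above 6-fold and 13 clusters. Chromosome 18 there had 12.7% of peaks, a ChIP density ratio of 0.943, 17 peaks and 9 genes at or above 6-fold and 7 clusters. The counts of both chromosomes fall in part because fewer peaks enter. Their shares at or above 6-fold among the stronger peaks or their genes were not computed, so these counts cannot be called high or low. With 1 value per gene, chosen after seeing the data, the median folds were 4.58 for chromosome 3 and 5.45 for chromosome 18. No paired analysis was possible because there was 1 library of each kind. Folds with 2 or fewer input reads have intervals too wide to rank.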
